A study of Mus musculus with 16 samples.

Results

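Neurons of the mouse spinal cord are described here from single-cell RNA counts taken after a dorsal column lesion and from uninjured cord. They are the cells to which the authors' cell table gives cluster 3, named Neuronal, and they number 2486 of 18203 cells, or 13.7%. The study asked how loss of the Wnt receptor Ryk from astrocytes changes the response of the cord to injury. Spinal cord was dissociated, single cells were captured in droplets, and RNA molecules were counted by unique molecular identifiers (UMIs) in 16 libraries of 1 mouse each. The conditional knockout mice (cKO) were Rykfl/fl,GFAPcreERT2 and the controls (WT) were Ryk+/+,GFAPcreERT2, so both carry the inducible Cre, both were given tamoxifen, and the GFAP promoter directs Cre to astrocytes and not to neurons. All were 8 to 10 weeks old. The 8 conditions are WT and cKO mice that were uninjured (the labels call their treatment Sham) or were taken 1, 7 or 14 days (d) after the lesion, with 2 mice in each.

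Spinal neurons relay touch, pain and position sense from the dorsal horn, drive muscle from the ventral horn, and are joined by local interneurons. Excitatory spinal neurons load glutamate into vesicles through vesicular glutamate transporters, and inhibitory ones make GABA, release glycine, or both. Axons cut in the dorsal columns belong mainly to sensory neurons whose cell bodies lie outside the cord and to descending cortical neurons, so most neurons in these samples are local cells whose own axons were not necessarily cut.

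Neurons held 8347258 UMIs in all, with a median of 1848 UMIs and 1070 genes per neuron against 1094 UMIs and 650 genes in the other 15717 cells. Depth was uneven among mice, from 7570 neuronal UMIs in 18 neurons of WT 1 d mouse 1 to 2145779 in 319 neurons of WT 14 d mouse 2. The library of WT 1 d mouse 2 holds 1 cell, which is not a neuron, so 15 mice give values. Condition names inside the cell names contradict the sample titles in 6 libraries, all of them mouse 2 of their condition. WT uninjured mouse 2 is named there as cKO uninjured, cKO uninjured mouse 2 as WT 7 d, WT 1 d mouse 2 as WT 14 d, WT 7 d mouse 2 as WT 1 d, WT 14 d mouse 2 as cKO 14 d, and cKO 14 d mouse 2 as cKO 7 d. The cell table's own condition column differs from the titles for 0 libraries, and the titles are used below. Cell barcodes recur between libraries in 44 of 120 pairs. The pairs among mouse 1 of WT 1 d, WT 7 d, cKO 1 d and cKO 7 d share 28 to 115 barcodes each, and other pairs share at most 4. In all 432 cells, 22 of them neurons, have a barcode found in another library, and 6 barcodes are a neuron in more than 1 library. The authors' cell table also gives each mouse a batch number, which is 1 for mouse 1 and 2 for mouse 2 of every condition, so the 4 libraries with shared barcodes are all of batch 1. Differences in shares, and the numbers of genes called at 14 d and between injured genotypes, are given with and without these libraries. Most other values are given with them only. Results that differ by batch are given within it.

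The 5 markers of the cell type were high in these neurons. Meg3, a long noncoding RNA of nuclei, stood at 7357 CPM (UMIs of the gene per 1e6 UMIs of the cells) in neurons and 198 in all other cells. Rbfox1 and Rbfox3, which encode neuronal splicing factors (the latter is the NeuN antigen), stood at 2770 against 168 and at 577 against 24.8. Snhg11, a host of small nucleolar RNAs, stood at 1338 against 53.5. Syt1, the calcium sensor of synaptic vesicle release, stood at 467 against 23.6. Each of the 5 was higher in neurons than in the other cells of the same mouse in 15 of 15 mice. Because these genes also shaped the clusters, this describes the cells and tests nothing. Meg3 ranged over the 15 mice from 1543 in cKO uninjured mouse 2 through a median of 8900 to 20030 in WT 7 d mouse 1.

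**Figure D1:**
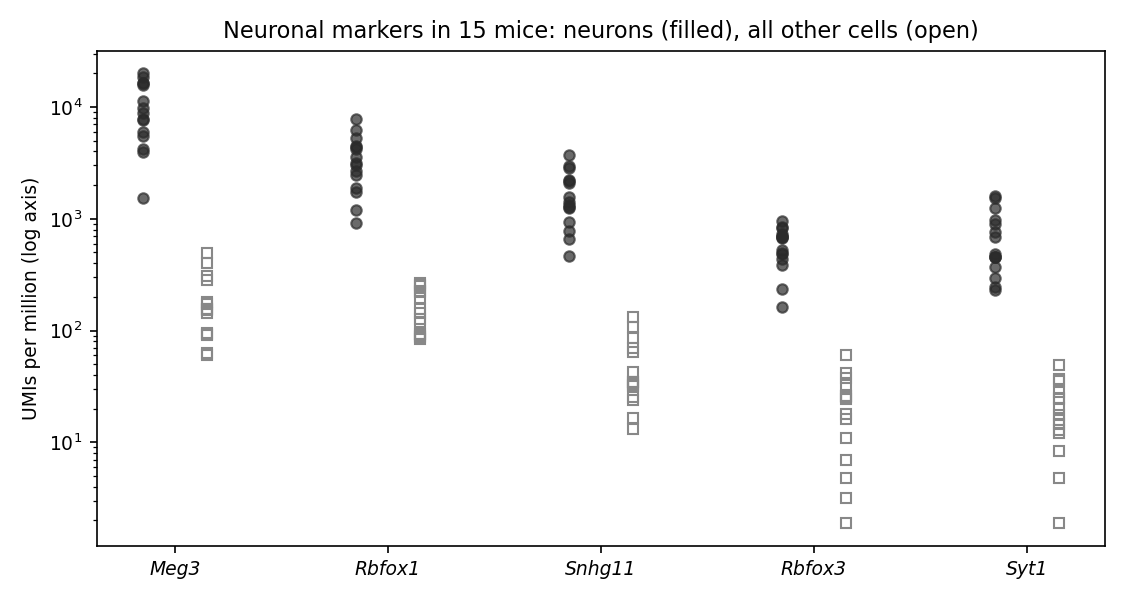
CPM (log axis) of the 5 neuronal markers, with a filled mark for the neurons and an open mark for all other cells of each of the 15 mice. For each gene the neurons of a mouse lie above its other cells, as with Meg3 at 1543 to 20030 CPM in neurons.

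At least 1 UMI of Meg3 was found in 85.9% of neurons and 13.3% of microglia, a type that should lack it. The median depth was 1848 UMIs in neurons and 978 in the 2129 microglia (clusters 6 and 10 of the cell table). The same shares were 79.9% and 14.2% for Rbfox1, 69.2% and 6.48% for Snhg11, 50.9% and 2.77% for Rbfox3, and 48.1% and 2.58% for Syt1. With cells thinned to 1000 UMIs, Meg3 remained in 84.4% of 1710 neurons and 6.58% of 1048 microglia, so the contrast held at equal depth. At least 3 of the 5 markers were seen in 71.1% of neurons and 2.72% of microglia, and none in 5.11% and 73.1%.

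The genes with the highest ratio of neurons to other cells, among those with a UMI in at least 10% of neurons, were led by Trank1, a gene of unsettled function, at 40.7-fold. Meg3 (37.1-fold) and Mirg (30.5-fold) followed, and then Gm28928, Morc2b, A230103L15Rik, Celsr3, 5330417C22Rik, Trpc7 and Hs6st3 at 30.2-fold to 26.8-fold. Celsr3 encodes a cadherin of the planar cell polarity pathway that guides axons, Trpc7 a cation channel, and Hs6st3 an enzyme that sulphates heparan chains. The leading 100 genes were long: their median span was 178 kb, against 69.7 kb for the 4928 genes seen in at least 10% of neurons and 15.9 kb for the 27682 genes with at least 10 UMIs in all cells. Of the 100, 85 are protein coding and 10 are long intergenic noncoding RNAs. Genes longer than 100 kb took 26.4% of neuronal UMIs in cKO uninjured mouse 2, the lowest mouse, and 53.4% in cKO 1 d mouse 1, the highest. In each of the 15 mice that share was above the share in its other cells.

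Meg3, Rian and Mirg lie in 1 imprinted stretch of chromosome 12 and are transcribed from the same strand. On GRCm38 Meg3 (ENSMUSG00000021268.17) spans chr12:109541001-109571726, Rian (ENSMUSG00000097451.10) chr12:109603940-109661716 and Mirg (ENSMUSG00000097391.8) chr12:109729764-109749460, all on the plus strand. Rian stood at 279 CPM in neurons and 30.3 in other cells, and Mirg at 123 and 4.02, both higher in neurons in 15 of 15 mice. These transcripts are hosts of microRNAs. RefSeq (GRCm38.p6) places 1 hairpin within Meg3, 3 within Rian and 14 within Mirg, with 3, 6 and 26 mature microRNAs. The microRNAs themselves were not measured, and 1 mature sequence from each host and a further one from Mirg are printed to show what the neuronal transcripts contain, with the seed (bases 2 to 8) in capitals.
mmu-miR-770-5p (Meg3): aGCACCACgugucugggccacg
mmu-miR-370-3p (Rian): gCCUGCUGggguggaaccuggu
mmu-miR-134-5p (Mirg): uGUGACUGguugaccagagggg
mmu-miR-410-3p (Mirg): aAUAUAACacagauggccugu

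Most gene groups for the working parts of a neuron were higher in neurons than in the other cells of the same mouse in all 15 mice. Summed over each list, 34 ion channel genes reached 8941 CPM in neurons and 2235 in other cells, with Kcnip4, a subunit of A-type potassium channels, as the most abundant. The 32 synaptic vesicle and release genes reached 9816 against 3598, and the 24 glutamate receptor genes 6348 against 1660. The 26 genes of the neuropeptide list reached 748 against 182. The list called neuropeptide here and below also holds Nxph1, a neurexophilin, at 244 CPM, and granin genes. Scg5 stood at 134, Scg2 at 79.8, Chgb at 67.2 and Chga at 58.5, and these with Nxph1 give most of the sum. The 31 axon and cytoskeleton genes reached 9657 against 5933, led by Ank2, the scaffold ankyrin-B. The 20 receptor and scaffold genes of GABA and glycine synapses were the exception, at 5070 against 3208 and higher in neurons in 13 mice. Gphn, the scaffold gephyrin, gave 2775 of the 5070. The sum was lower in neurons in WT uninjured mouse 2 (12430 against 13250) and cKO uninjured mouse 2 (10030 against 10560). In the other mice neurons held 3778 to 5812.

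Stress and immune lists ran the other way, lower in neurons in all 15 mice. Immediate early genes (25) summed to 315 CPM in neurons and 2155 in other cells, interferon and class I genes (22) to 304 and 2196, and heat shock genes (12) to 1018 and 2587. The 26 genes of the response to axon injury summed to 1202 and 2689, the 16 of endoplasmic reticulum stress to 248 and 751, and the 16 of p53 and apoptosis to 266 and 579. Mitochondrially encoded genes (13) gave 9176 and 14460 and were higher in neurons in 5 mice. Nuclear long noncoding RNAs (9), led by Malat1 at 21380, gave 31210 and 23530 and were higher in 12 mice.

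Summed over all mice, markers of other cell types were below their level in the other cells but not at 0. By mouse, red blood cell genes were higher in neurons in 4 of 15 mice, oligodendrocyte genes in 2, ependymal and fibroblast genes in 1 and the other lists in 0. The 8 oligodendrocyte genes summed to 7616 CPM in neurons (Mbp, myelin basic protein, 3554) and 10950 in other cells. The 8 astrocyte genes summed to 1503 and 3045 (Slc1a2, a glutamate transporter, 720 in neurons). The 10 microglial and immune genes summed to 600 and 5748, the 10 endothelial and mural genes to 1004 and 7530, and the 4 red blood cell genes to 861 and 4196. Of the 7189 red blood cell UMIs in neurons 6342 are from cKO 7 d mouse 2, and without that mouse the sum was 113 CPM. The 6 oligodendrocyte precursor genes gave 151 and 362, the 4 Schwann cell genes 110 and 565, and the 6 ependymal and fibroblast genes 94.9 and 718. No gene of these lists is at 0 in neurons, and how much of each comes from free RNA was not tested.

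Hox genes, which mark position along the body axis, were detected in neurons from paralogue group 2 to group 10 for 24 of 25 listed genes and summed to 532 CPM against 245 in other cells. Hoxb6 was highest at 69.0, followed by Hoxb8 at 51.8, Hoxb3 at 48.0 and Hoxc4 at 45.2. Group 9 was led by Hoxb9 at 17.7, Hoxc10 had 9 UMIs, and Hoxd10 had 0 UMIs of 8347258, for which the limit is 3 counts. Levels of different genes are not comparable beyond their counts, since capture differs between genes.

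Transmitter genes were found in fewer than 40% of the neurons. UMIs of Gad1 and Gad2 (which make GABA), Slc32a1 (the vesicular transporter of GABA and glycine) and Slc6a5 (the glycine transporter GlyT2) numbered 1464, and those of the vesicular glutamate transporters Slc17a6, Slc17a7 and Slc17a8 numbered 500, so 74.5% of these UMIs were of inhibitory genes, a share of UMIs of different genes and not of cells. Slc6a5 was the most abundant of the 7 at 620 UMIs, followed by Slc17a6 with 421. Among cells, 609 (24.5%) had inhibitory UMIs alone, 191 (7.68%) excitatory UMIs alone, 156 both and 1530 (61.5%) neither. In microglia 2.58% were inhibitory alone and 0.892% excitatory alone, at a median of 978 UMIs against 1848. With cells thinned to 1000 UMIs the inhibitory share of cells was 15.1% in neurons and 1.15% in microglia. UMIs of Gad1 or Gad2 and of Slc6a5 occurred together in 137 neurons. In the astrocyte clusters 2 and 5 the transmitter genes were not low: Slc32a1 stood there at 51.0 and 33.0 CPM against 27.3 in neurons, and Slc17a6 at 43.8 and 41.8 against 50.4.

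Genes that the transmitter rule did not use differed between the 609 inhibitory and 191 excitatory cells. Pax2, a factor of dorsal inhibitory neurons, stood at 72.6 CPM in inhibitory cells and 19.8 in excitatory ones, Pax8 at 21.1 and 6.99, and Gbx1 at 13.1 and 1.17. The peptide genes Penk (enkephalin) and Gal (galanin) stood at 37.1 and 15.2, and at 11.4 and 1.17. On the excitatory side, Reln stood at 178 in excitatory and 96.7 in inhibitory cells, Ebf2, a factor of early neuronal differentiation, at 205 and 113, Nmu (neuromedin U) at 25.6 and 7.03, and Sst (somatostatin) at 30.3 and 13.7. The cells of each class come from the same libraries and no test was made.

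The 21 genes listed for dorsal excitatory neurons summed to 3260 CPM in neurons and 2074 in other cells, led by Rora, and the 17 for dorsal inhibitory neurons to 419 and 204, led by Rorb. The 21 listed for ventral neurons summed to 1783 and 2178, led by Nfia, which glia also express, and were higher in neurons in 4 of 15 mice. Cholinergic genes (6), which mark motor neurons and some interneurons, gave 66.9 and 11.7, higher in 15 mice, and a UMI of at least 1 of them was in 8.21% of neurons and 0.611% of microglia. Genes of cells that contact cerebrospinal fluid (5) gave 61.0 and 53.7, and of monoamine synthesis (5) 33.2 and 63.1, higher in neurons in 7 and 3 mice.

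The neurons were not of 1 kind. Clustering of the 2310 neurons with at least 500 UMIs gave 10 sub-clusters of 485 to 32 cells, which are numbered by size and not given cell type names. Sub-cluster 6 (183 cells in 14 mice) had the highest sum of excitatory neuron markers, 3899 CPM, of which Ebf1 gave 2288. Pax2 (99.4 CPM) and Gbx1 (30.8), both on the inhibitory side, were also highest there, and 68.1% of its transmitter UMIs were inhibitory. Its genes with the highest fold over the rest include Car12 (10.6 times), Pde11a (8.56 times) and Ebf2 (8.39 times). Sub-cluster 10 (32 cells in 11 mice) had Slc5a7, the choline transporter of cholinergic terminals, at 50.1 times the rest. The 87 UMIs of Slc5a7 lie in 12.5% of the cells. The 6 cholinergic genes summed there to 1187 CPM, the highest of the 10, with Slc18a3 at 332.5 (35 UMIs). Chat, which makes acetylcholine, had 2 UMIs, Prph 1, and Isl1 and Mnx1 0. Atp1b1, a sodium pump subunit (35.2 times), was in every cell of sub-cluster 10, Ackr1 stood at 40.3 times and Ret, a growth factor receptor, at 30.8 times. Some excitatory and inhibitory genes were high in sub-cluster 10, Slc17a6 at 522, Slc17a7 at 114, Slc32a1 at 446 and Slc6a5 at 399 CPM. Others were not: Gad1 and Gad2 stood at 28.5 and 38.0 (3 and 4 UMIs), against 35.9 and 37.9 in all neurons, and Slc17a8 had 0 UMIs. The sum of the 5 neuronal markers in sub-cluster 10, 1491 CPM, was the lowest of the 10. Cells of sub-cluster 4 (231) also carried endothelial and mural markers at 3.79 times the level of all sub-clustered neurons, with Flt1, a receptor of vascular growth factors, at 1580 CPM, and its genes with the highest fold over the rest were Bst2 and Sox17. Sub-clusters 5 (226) and 7 (171) carried astrocyte markers at 2.18 and 2.23 times that level, 5 with ribosomal and respiratory chain genes such as Rpl35a and Ndufb8, 7 with Gli2 and Itih3. Red blood cell genes stood at 8.06 times that level in sub-cluster 1 (485), which holds 27 cells of cKO 7 d mouse 2, the mouse with most of the red blood cell UMIs. Ependymal and fibroblast genes stood at 4.06 times in sub-cluster 9 (111) and microglial and immune genes at 2.88 times in sub-cluster 10. Sub-cluster 8 was 77.3% cells of cKO 1 d mouse 2, and sub-cluster 3 (309 cells in 8 mice) had its largest group, 94 cells, in cKO 14 d mouse 1. The number of sub-clusters depends on the setting.

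The authors' table also holds an earlier cluster number, by which 159 of the neurons had been in another cluster. These 159 had a median of 7.66% mitochondrial UMIs against 1.48% in the other 2327 neurons, 680 CPM of Meg3 against 7628, and 3096 of Malat1 against 22130. Slc32a1 stood in them at 248 against 18.3 and Slc17a6 at 300 against 40.3, with UMIs in 35 and 43 of the 159 cells. Astrocyte markers were also higher in them, the 8 genes at 3430 against 1425, Slc1a2 at 2078 against 665 and Aqp4 at 175 against 75.7. The 6 cholinergic genes summed to 447.5 against 51.4. Slc5a7 stood at 307 against 15.5, with its 100 UMIs in 13 cells and 48 of them in 1 cell. Slc18a3 had 37 UMIs in 5 of the 159 cells, 20 of them in 1 cell, while Chat stood at 9.20 against 11.0. Their leading gene was Atp1b1 at 3822 against 248, 15.4-fold, followed by Vgf, a secreted neuronal peptide precursor, at 13.7-fold. Most of the 159, 96 cells, lie in sub-cluster 5, which carried astrocyte markers at 2.18 times the level of all sub-clustered neurons. Of the 32 cells of sub-cluster 10, 28 are among the 159, and sub-clusters 2, 8 and 1 hold 16, 11 and 5 of them.

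Ryk, the gene deleted in astrocytes, was detected in neurons of both genotypes. It had 396 UMIs in neurons, 47.4 CPM against 70.9 in other cells, and was higher in neurons in 2 of 15 mice. A UMI was in 12.3% of neurons and 13.3% of other cells, so a share from free RNA was not told apart. Scaled to library composition, the uninjured mice had 32.4 and 42.3 CPM in WT and 49.9 and 60.2 in cKO. After injury the WT mice had 0 (1 d, 0 of 7570 UMIs), 32.0 and 61.4 (7 d) and 44.6 and 57.1 (14 d), and the cKO mice 20.1 and 65.9, 99.0 and 59.0, and 60.6 and 45.3. Neuronal Ryk of both cKO mice without injury lay above both WT mice, and the genotypes overlapped after injury. The uninjured difference, cKO minus WT, was 0.54 on the log2 scale (SE 0.60, edgeR adjusted p = 1.0), and after injury 2.67 (SE 1.86, adjusted p = 0.769), where the median over all genes was itself 2.01. The Cre is directed to astrocytes and not to neurons, so these counts do not check the knockout and say nothing of astrocytes. They also do not locate the deleted exons. The 29 genes of Wnt receptors, ligands and planar polarity summed to 1114 CPM in neurons and 1015 in other cells, higher in neurons in 9 mice, led by Prickle2.

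The share of neurons among cells ranged from 1.76% to 29.8% over the 15 mice. It was 8.98% and 9.18% in uninjured WT and 29.8% and 9.45% in uninjured cKO. At 1 d it was 1.76% in WT and 7.85% and 18.9% in cKO, and at 7 d 4.74% and 18.7% in WT and 4.31% and 15.1% in cKO. At 14 d it was 14.0% and 24.4% in WT and 26.2% and 23.5% in cKO. The 4 lowest mice are those whose libraries share barcodes. All 4 mice at 14 d lie above 3 of the 4 uninjured mice and below the other. Injured mice averaged 14.5% ± 8.71 (SD, n = 11) and uninjured mice 14.4% ± 10.3 (SD, n = 4).

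**Figure D2:**
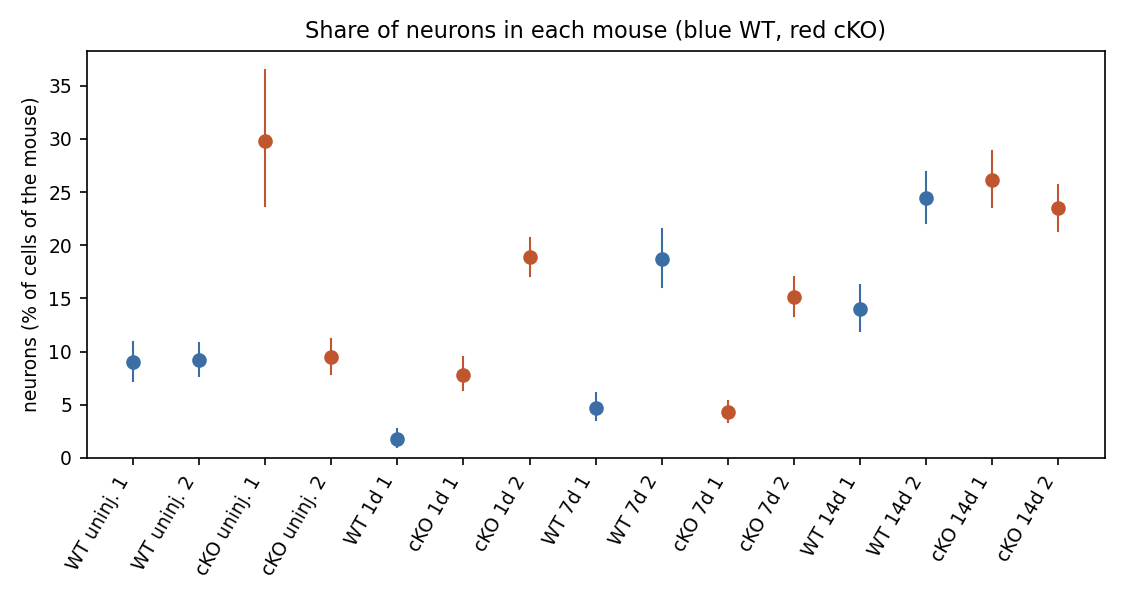
Neurons as a percentage of the cells of each of 15 mice (blue WT, red cKO), by condition, with exact Clopper-Pearson 95% intervals for counting error. The share runs from 1.76% in WT 1 d mouse 1 to 29.8% in cKO uninjured mouse 1.

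Averaged over the genotypes, injured minus uninjured was -0.00777 percentage points, with p = 0.998 by an exact two-sided permutation within genotype (smallest possible p 0.0017). Without the 4 libraries that share barcodes it was 5.62 points (exact permutation p = 0.227). Without the libraries that go against their cell names it was -8.75 points (exact permutation p = 0.25). Within the authors' batches the signs were opposite, -9.59 points in batch 1 (8 mice) and 11.1 in batch 2 (7 mice), and 0.729 averaged over them. Leaving out cKO uninjured mouse 1 gave 5.08 points and leaving out cKO uninjured mouse 2 gave -5.10. Between genotypes after injury, cKO minus WT averaged over the times was 5.07 points (exact two-sided permutation test within times, 11 mice, p = 0.361, smallest possible 0.00926). It was 1.02 points without the 4 libraries (exact permutation p = 0.833), 9.58 without those that go against their names (exact permutation p = 0.167), and 1.80 without WT 1 d mouse 1 alone. Within batch 1 it was 5.95 points (6 mice) and within batch 2 -2.27 (4 mice, none at 1 d). A share of dissociated cells counts what survived dissociation and capture, and was not compared with neurons in tissue.

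Inhibitory transmitter UMIs outnumbered excitatory ones in the neurons of every mouse with more than 9 such UMIs. In uninjured mice it was 74.7% and 72.5% in WT and 68.0% and 66.7% in cKO. At 14 d it was 63.0% and 74.1% in WT and 77.8% and 76.6% in cKO. At 7 d the well counted mice had 77.2% (WT mouse 2) and 78.2% (cKO mouse 2), and at 1 d cKO mouse 2 had 74.4%. The other mice at 1 d and 7 d rest on 2 to 9 UMIs each: 50% in WT 1 d mouse 1, 77.8% in cKO 1 d mouse 1, 100.0% in WT 7 d mouse 1 and 50% in cKO 7 d mouse 1. Their 95% intervals are wide, as from 6.76% to 93.2% in cKO 7 d mouse 1. Both uninjured WT mice lie above both uninjured cKO mice. In cKO 5 of the 6 injured mice lie above both uninjured mice, with mouse 1 at 1 d among them on 9 UMIs. The other, mouse 1 at 7 d, rests on 4 UMIs. The 95% intervals of the uninjured cKO mice, 58.0% to 76.8% and 52.9% to 78.6%, overlap those of the injured cKO mice. In WT the injured and uninjured mice overlap.

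**Figure D3:**
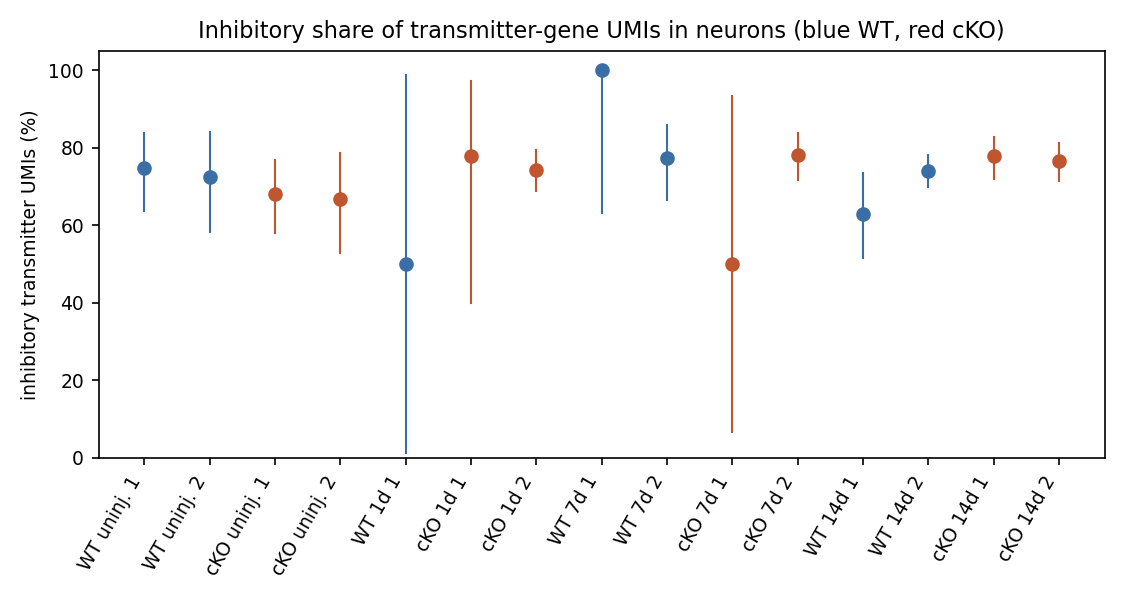
Percentage of transmitter-gene UMIs in neurons that belong to Gad1, Gad2, Slc32a1 and Slc6a5 in each of 15 mice (blue WT, red cKO), with exact Clopper-Pearson 95% intervals for counting error. The 4 mice with the widest intervals hold 2 to 9 such UMIs, and the others lie between 63.0% and 78.2%.

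Injured mice averaged 72.6% ± 14.1 (SD, n = 11) and uninjured mice 70.5% ± 3.78 (SD, n = 4). The difference within genotype was 2.18 points (exact two-sided permutation test, p = 0.799), and 3.60 points without the 4 libraries that share barcodes (exact permutation p = 0.373). It was -0.018 points without the libraries that go against their cell names (exact permutation p = 1.0), and -1.21 without WT 7 d mouse 1. It was -1.57 points within batch 1 and 6.40 within batch 2. Between genotypes after injury cKO exceeded WT by 3.40 points (exact permutation p = 0.694). That was 4.80 points without the 4 libraries (exact permutation p = 0.167) and 1.66 without those that go against their names (exact permutation p = 0.889). It was 0.112 without the 159 neurons once in another cluster (exact permutation p = 1.0), -7.94 without WT 1 d mouse 1 and 8.09 without cKO 7 d mouse 1, with -0.399 without WT 7 d mouse 2 and -1.30 without cKO 7 d mouse 2. Within batch 1 it was -2.47 points and within batch 2, which lacks WT at 1 d, 1.71.

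At 14 d after the lesion, compared with uninjured mice, more genes were called higher in neurons than lower. Many of the higher ones had few UMIs in uninjured mice. The lower ones include Calb2, Hoxc8, Tubb3 and Rab3a and the muscle genes Acta1 and Tnnc2. Trank1, which had the highest ratio of neurons to other cells, was called higher by edgeR (log2 1.57, adjusted p = 0.0375, 1795 UMIs against 121). Of 10238 genes tested, 81 (0.791%) passed, 67 higher (0.654%) and 14 lower (0.137%). By edgeR 1340 genes had an unadjusted p under 0.05, while DESeq2 called 0 with 428 at that level. The contrast averages WT and cKO, 4 mice against 4. On simulated data with changed genes added, unchanged genes were a larger part of the edgeR calls than the threshold allows, and with none added it called none. At an added log2 change of 2, edgeR called 152 of 173 changed genes there (87.9%) and 20 unchanged ones. DESeq2 called 103 of these 173 (59.5%) and 4 unchanged ones, while it called 0 genes in the measured neurons at 14 d. Why DESeq2 called 0 in the measured neurons was not tested. With the authors' batch as a block 97 genes were called, 73 higher and 24 lower, 79 of them among the 81. The neurons of the groups also fell into different sub-clusters. Sub-cluster 3, whose leading genes include the called Gm10718 and Gm14643, holds 259 neurons at 14 d and 1 from uninjured mice. Sub-cluster 9, whose leading genes include the called Gm45740, Gm28494, Dnah2 and Gm49692, holds 86 and 1. Sub-cluster 2 holds 77 and 147. Of its uninjured cells, 77 and 57 are from mouse 2 of WT and cKO (batch 2), and 6 and 7 from mouse 1 (batch 1). Its cells at 14 d are 16 and 27 from mouse 1 of WT and cKO, and 26 and 8 from mouse 2. The median depth was 5129 UMIs in sub-cluster 3, the highest of all, and 1562 in sub-cluster 2. The part of these sub-cluster differences in the gene results was not tested.

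Gm10721 (chr9:3013140-3014344) gave 5.39 and 28.2 scaled CPM in uninjured WT and 0 and 0 in uninjured cKO, against 48.7 and 131 in WT and 354 and 109 in cKO at 14 d. All 4 mice at 14 d were above the 4 uninjured mice, and it rose with an adjusted p of 0.000596, on 651 UMIs against 5. No fold is given, since uninjured cKO has 0 UMIs. Gm10721 is 1 of 8 called genes on chromosome 9 that share at least 25% of their 31-base words with another called gene, so how reads divide among them is uncertain. Summed over all 11 called genes with such shared sequence, uninjured neurons had 53.9 and 425 CPM in WT and 28.9 and 290 in cKO. At 14 d they had 596 and 2144 in WT and 4193 and 1762 in cKO, again without overlap. The same genes in the other cells of these mice gave 9.35 to 28.2 when uninjured and 29.2 to 307 at 14 d, also without overlap. Whether free RNA of neurons adds to the counts in the other cells was not tested.

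Myo3b, which encodes an unconventional myosin and is 1 of the 5 genes listed for neurons that contact cerebrospinal fluid, gave 5.39 and 0 in uninjured WT, 8.32 and 7.53 in uninjured cKO, and 28.4, 37.7, 60.6 and 52.7 at 14 d. All mice at 14 d lay above all uninjured ones (log2 3.09, SE 0.62, adjusted p = 0.0211). Gm12649, a long intergenic noncoding RNA, had 0 UMIs in the 4 uninjured mice and 16.2, 13.1, 48.2 and 28.8 scaled CPM at 14 d (99 UMIs), at least 6.53-fold higher over a floor of 3 counts for the group. For 4930405D01Rik the bound was at least 4.95-fold, from 75 UMIs against 0. Mageb18, an X-linked gene of the MAGE family, had 2 UMIs in uninjured mice and 150 at 14 d, with 24.3, 34.0, 46.9 and 37.1 scaled CPM. The other largest rises were Gm10715, Gm26713, Gm17535, Gm10720, Spag17 and Ofcc1, with 1 to 3 UMIs in the uninjured mice, so no fold is given, and Gm17535 and Gm10720 overlap. In all, 42 of the 67 higher genes had under 10 UMIs in the uninjured mice (the called genes had a median of 207 UMIs over the 8 mice and the genes tested 202), which held 956465 neuronal UMIs against 4833347 at 14 d. The 67 had a median span of 258 kb against 36.5 kb for genes tested, while genes longer than 100 kb took 33.7% to 42.7% of neuronal UMIs at 14 d and 26.4% to 45.9% in uninjured mice, with overlap. Of the 81 called, 56 are protein coding against 91.6% of genes tested.

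Among the genes that fell, Acta1, skeletal muscle actin, gave 0 and 91.7 in uninjured WT, 111 and 346 in uninjured cKO, and 0, 10.5, 0 and 0 at 14 d. The groups overlap through WT uninjured mouse 1, and it fell with an adjusted p of 0.000596, on 20 UMIs against 99. Tnnc2, a troponin of fast muscle, and Ackr1, a chemokine receptor of venous endothelium and red cells, also fell, to 11 from 25 UMIs and to 7 from 17 in a deeper set, without overlap for Tnnc2 and with overlap for Ackr1. Over all conditions Ackr1 had 0 UMIs in sub-cluster 4, which carried endothelial markers, and 14 in sub-cluster 10. The source of the Acta1, Tnnc2 and Ackr1 UMIs was not tested.

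Calb2, Hoxc8, Tubb3 and Rab3a, also among the falls, had more counts. Calb2, which encodes the calcium-binding protein calretinin of dorsal horn neurons, gave 119 and 141 in uninjured WT, 55.4 and 97.9 in uninjured cKO, and 44.6, 23.04, 40.0 and 34.6 at 14 d. Each mouse at 14 d lay below each uninjured mouse (log2 -1.54, SE 0.34, adjusted p = 0.0262). Hoxc8 gave 156 and 77.6, 111 and 82.8, and then 28.4, 33.5, 34.5 and 42.0, also without overlap (log2 -1.63, SE 0.37, adjusted p = 0.0296). Tubb3, the neuronal tubulin, gave 48.5, 169, 91.5 and 113, and then 48.7, 17.8, 40.0 and 16.5, with overlap at WT uninjured mouse 1 (log2 -1.93, SE 0.44, adjusted p = 0.0296). Rab3a, a vesicle GTPase, gave 75.5, 226, 133 and 331, and then 77.1, 46.1, 93.7 and 43.7, with overlap (log2 -1.53, SE 0.38, adjusted p = 0.043). Ccdc184, Mfsd5, Dctn3 (a dynactin subunit) and Tmem88b were the other falls named by the rule, at log2 -2.97 to -1.57.

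**Figure D4:**
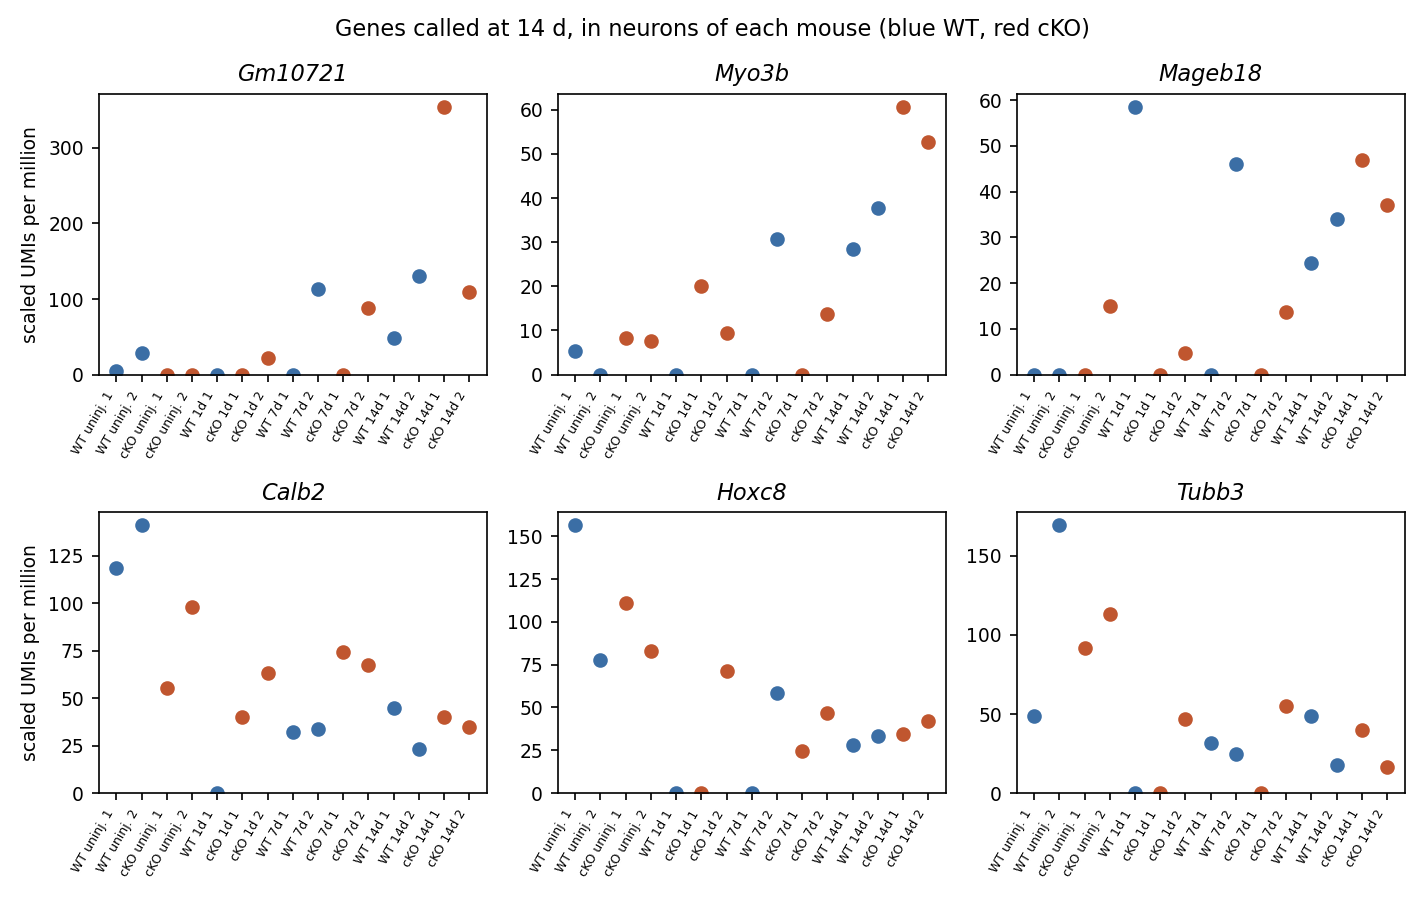
Scaled CPM in neurons of each of 15 mice (blue WT, red cKO) for 3 genes called higher (Gm10721, Myo3b, Mageb18) and 3 called lower (Calb2, Hoxc8, Tubb3) at 14 d. The 4 mice at 14 d lie above the uninjured mice for Gm10721 (48.7 to 354 against 0 to 28.2) and below them for Calb2 (23.04 to 44.6 against 55.4 to 141).

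Among the lists, 7 had 1 called gene each and the rest had 0 by edgeR. They are general neuronal genes (Tubb3, 1 lower of 12 tested, 4 with unadjusted p under 0.05), axon and cytoskeleton (Tubb3, 1 lower of 31, 13 such), axon injury response (Tubb3, 1 lower of 23, 4 such), dorsal inhibitory (Calb2, 1 lower of 14, 3 such), synaptic vesicle (Rab3a, 1 lower of 32, 7 such), Hox (Hoxc8, 1 lower of 15, 5 such) and cerebrospinal fluid contact (Myo3b, 1 higher of 2 tested). Median log2 changes at 14 d were -0.29 for general neuronal genes, -0.44 for Hox, -0.52 for 15 neuropeptide genes, -0.79 for 10 heat shock genes and -0.76 for 13 mitochondrially encoded genes, against 0.04 over all genes tested. Over all genes the called share was 0.791%, and whether any list departs from it was not tested. Markers of other cells had medians of -0.44 (astrocyte, 8 genes), -0.67 (oligodendrocyte, 8), 0.81 (microglia and immune, 9), -0.45 (endothelial and mural, 9) and -2.11 (red blood, 4), with 0 called by edgeR and 0 by DESeq2, and 1, 4, 4, 5 and 3 with an unadjusted edgeR p under 0.05. Aldh1l1, an astrocyte marker outside these 8 genes, gave 27.0, 42.3, 11.1 and 22.6 scaled CPM in uninjured mice and 44.6, 38.8, 179 and 218 at 14 d. The groups overlap through WT 14 d mouse 2, and it was called higher (log2 2.00, adjusted p = 0.0387, 480 UMIs against 18). Their part in the gene results was not tested. In the other cells of the mice, 57 of the 67 higher genes also had a higher mean at 14 d and 11 of the 14 lower genes a lower one, against 67.4% and 32.6% of all genes tested. Without overlap between the groups these were 15 of 67 and 1 of 14, against 7.46% and 0.723%.

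The number called is fragile. Of the 81, 69 have groups that do not overlap, where 937 (9.15%) of the genes tested do. It was 33 without WT uninjured mouse 2, 7 without WT 1 d mouse 1, 25 without WT 7 d mouse 1, 24 without WT 7 d mouse 2, 52 without cKO 7 d mouse 2, 27 without WT 14 d mouse 1, 2 without WT 14 d mouse 2, 2 without cKO 14 d mouse 1 and 36 without cKO 14 d mouse 2. Without WT uninjured mouse 1 the 67 higher and 14 lower became 26 and 47, and without cKO uninjured mouse 1 they became 22 and 50. The lower genes numbered 9 without cKO uninjured mouse 2, 33 without cKO 1 d mouse 1 and 25 without cKO 1 d mouse 2. Without the libraries that go against their cell names 49 were called, 20 of them among the 81, and without the 4 that share barcodes 23, of which 22 are among the 81. Gm10721 was called under 28 of 29 alternatives, all but DESeq2, and Acta1 under 25. Acta1 was not called without WT uninjured mouse 2. Myo3b was called under 18 of 28, Hoxc8 under 17, Tubb3 and Calb2 under 14 and Rab3a under 9 of 29. Condition and the animal number series (all mice at 14 d have numbers of 10000 and above, 2 of the 4 uninjured mice do not) are partly joined, and with that series as a term 830 were called, 181 higher and 649 lower, 59 of them among the 81.

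A week after a lesion inflammation is high and the scar is forming, and spared neurons begin to sprout. Neurons of 4 mice at 7 d were compared with those of 4 uninjured mice, and the gene that passed rests on 1 mouse. At 7 d, 1 gene was called by edgeR, 0.00977% of those tested, with 871 at an unadjusted p under 0.05 and 0 called by DESeq2. Cwc22, a spliceosome factor, gave 37.7 and 14.1 scaled CPM in uninjured WT and 24.95 and 22.6 in uninjured cKO. At 7 d it gave 0 and 2250 in WT and 24.8 and 96.1 in cKO. The high value is that of WT 7 d mouse 2 alone, a library whose cell names give another condition. The fitted change was 3.62 on the log2 scale (SE 0.65, adjusted p = 0.046), and it was -2.50 without that mouse and -2.44 without all the libraries that go against their names. Genes next in order did not pass. Cd163l1, a scavenger receptor, gave 10.8, 21.2, 5.54 and 15.1 uninjured and 32.0, 70.6, 49.5 and 74.1 at 7 d, without overlap (adjusted p = 0.0589). Lamp5, of lysosome-associated membrane proteins and neurons, gave 167, 162, 125 and 264 uninjured and 32.0, 43.0, 0 and 59.0 at 7 d, without overlap (adjusted p = 0.116). Endod1 gave 173, 247, 99.8 and 203, and 0, 52.2, 24.8 and 65.9 (adjusted p = 0.29). Gm10721 gave 0, 114, 0 and 87.9 at 7 d (adjusted p = 0.0589), and Tnnc2 had 0 UMIs at 7 d against 25 in uninjured mice (adjusted p = 0.29). With the authors' batch as a block 7 genes were called, 2 higher and 5 lower, with an adjusted p of 0.0115 for Cwc22, 0.0217 for Gm10721, 0.0364 for Lamp5 and 0.0385 for Endod1 and Tnnc2.

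The first day after a lesion brings bleeding, loss of ion balance and early gene responses in neurons. Neurons of 3 mice at 1 d were compared, and only those of cKO mouse 2 were counted deeply. At 1 d, 0 of 10238 genes (0%) passed by edgeR, DESeq2 called 1, and 501 had an unadjusted edgeR p under 0.05. The WT side at 1 d is the single library of 7570 UMIs, the fit assumes that it varies like the other groups, and the median over all genes was -2.98 on the log2 scale, so values are given and no fold. Atp1b1 gave 798, 1347, 299 and 1047 in the uninjured mice and 58.5 in WT and 221 and 426 in cKO at 1 d. Adam23, a neuronal cell surface protein, gave 377, 346, 335 and 264, and then 0, 141 and 246, without overlap. Atp1b1 overlaps between the groups, and both genes had an adjusted p of 0.759. The genes mt-Atp8, Bin1 and Pde3b, also among those with the smallest p, had the same adjusted p.

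Astrocytes clear transmitter and shape synapses, and the GFAP-driven Cre targets Ryk in them and not in neurons. Uninjured neurons of the genotypes were compared with 2 mice on each side. Between genotypes without injury, 0 of 10238 genes (0%) passed by edgeR, 353 had an unadjusted edgeR p under 0.05, and by DESeq2 0 passed and 65 had such a p. Calca, the gene of the pain peptide CGRP, gave 32.4 and 141 scaled CPM in WT neurons and 2.77 and 0 in cKO. Ckm and Mylpf, of skeletal muscle, ran the other way, at 0 and 7.05 and at 0 and 0 in WT, and 38.8 and 188 and 33.3 and 67.8 in cKO. The values do not overlap in these 3 genes, each on 40 UMIs or fewer, and none passed (adjusted p = 0.694 for Calca and Ckm and 0.714 for Mylpf). Gm26905 and mt-Nd6 had WT above cKO without overlap, and Gm37376 overlapped. The neuropeptide list had 7 of 15 tested genes at an unadjusted p under 0.05 and a median of -1.56 (-0.28 when fitted without WT 1 d mouse 1) against 0.01 over all genes, and mitochondrially encoded genes 7 of 13 and a median of -1.78. The genes of the neuropeptide list, Nxph1 and the granins included, summed to 1714 CPM in WT uninjured mouse 1 and 761 in mouse 2. In cKO they summed to 822 and 732, so WT mouse 2 lies between the cKO mice. WT uninjured mouse 1 held 44860 CPM of mitochondrially encoded genes and the other uninjured mice 5096 to 8246, and its part in these medians was not tested. Leaving out WT uninjured mouse 2 gave 2 called genes, and leaving out the libraries that go against their names gave 7.

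Astrocytes form a border around the lesion within days and stay in contact with the neurons beside it. Neurons of 6 cKO and 5 WT injured mice were compared, of which 4 are shallow. Between genotypes after injury, averaged over the times, 0 genes (0%) passed by edgeR, 382 had an unadjusted edgeR p under 0.05, and by DESeq2 0 passed and 87 had such a p. The median over all genes was 2.01 on the log2 scale here and 0.04 without WT 1 d mouse 1, so values are given in place of folds. Aldh1l1, an enzyme of folate metabolism used as an astrocyte marker, gave in WT neurons 0 (1 d), 0 and 30.7 (7 d) and 44.6 and 38.8 (14 d). In cKO neurons it gave 20.1 and 144 (1 d), 24.8 and 232 (7 d) and 179 and 218 (14 d). Of the cKO mice, 4 lay above every WT mouse and 2 did not, and the uninjured mice had 27.0, 42.3, 11.1 and 22.6 (adjusted p = 0.769). The 8 astrocyte genes summed in WT neurons to 661 CPM (1 d), 446 and 1148 (7 d) and 1472 and 1492 (14 d). In cKO neurons they summed to 535 and 1871 (1 d), 818 and 2132 (7 d) and 1178 and 1223 (14 d). All 8 were positive, as were 8440 of the 10238 genes tested. Their median was 1.91 against 2.01 over all genes, and 0.36 against 0.04 without WT 1 d mouse 1. The part of these 8 genes in the Aldh1l1 values was not tested. The 4 red blood cell genes had a median of 4.79, and of 3.08 without WT 1 d mouse 1, and all 4 at an unadjusted p under 0.05, with 7272 CPM in neurons of cKO 7 d mouse 2 and 402 or fewer in every other injured mouse. Npsr1, the neuropeptide S receptor, gave 0, 0, 12.3, 8.11 and 19.4 in WT and 0, 91.3, 49.5, 157, 85.5 and 119 in cKO (adjusted p = 0.769). Iqsec1, Erbb4 (a neuregulin receptor), Gnaq and Lhfpl3 came next, each at 0 in WT 1 d mouse 1. Without the libraries that go against their names 22 genes were called, all higher in cKO, and without the 4 that share barcodes 1.

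Whether the mean effect of injury differed by genotype was tested as an interaction. By edgeR 0 genes (0%) passed, DESeq2 called 0 as well, and 386 had an unadjusted edgeR p under 0.05. The median over all genes was 1.72 on the log2 scale and 0.06 without WT 1 d mouse 1. Zbtb16, a zinc finger factor, had the smallest p, with 318 and 84.6 in uninjured WT and 97.0 and 82.8 in uninjured cKO. After injury WT had 0 to 158 and cKO 124 to 335, with overlap (adjusted p = 0.884). The genes next in order were mt-Nd5, Timp3 (an inhibitor of metalloproteinases), Aldh1l1, Ppp4r4 and mt-Nd3, each at an adjusted p of 0.884.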

How the data were processed

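The counts are the authors' gene by cell UMI matrices, made by them with Cell Ranger (version not given) on mm10, and their cell table (Seurat, R 4.1.2, limits of 25% mitochondrial UMIs and 200 genes per cell). Gene positions are from GENCODE vM21, joined by symbol. Neuronal UMIs were summed per mouse, genes were kept by filterByExpr, and the 8 conditions were fitted with TMM factors and quasi-likelihood in edgeR 4.0.16, with Benjamini-Hochberg adjustment and calls at adjusted p under 0.05. All tests are two-sided. DESeq2 1.42.0, RLE factors, other filters and left-out libraries were the alternatives. Sub-clusters used leidenalg 0.10.2. Python 3.11.15, pandas 2.3.3, scipy 1.17.1, R 4.3.3 and limma 3.58.1 ran the rest. Named per comparison were the 10 called genes with the largest rise and the 10 with the largest fall among those with at least 10 UMIs on either side, or, with fewer than 10 called, the smallest p up to 6 in all. From each list up to 4 called genes were named, and Ryk and the 5 markers always. Replicate numbers equal the batch numbers of the authors' cell table. The fit has no block, a fit with that block is given beside it, and same-numbered mice deviated together at a median correlation of 0.033 over 21 pairs of conditions (7 above 0.1). The neurons and the lists were chosen with earlier results of these data known.

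Each condition has 2 mice at most, and WT at 1 d has 1. Each batch holds 1 mouse of every condition. Condition, depth and animal number series are partly joined and cannot be fully told apart. Free RNA and droplets holding more than 1 cell were neither measured nor removed here, and the authors' methods name no such step. The authors corrected their clustering for batch and sample, and the counts are uncorrected. Groups of cells were set by clusters made from the same counts, so marker levels are descriptions. Protein, splicing and position in tissue were not measured.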

Additional observations from a re-analysis of the deposited data

Results flagged for a closer look

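Within each of 3 groups (uninjured mice, injured WT mice, injured cKO mice) 19 measures were compared mouse by mouse, and a mouse was marked when its distance to the nearest mouse passed the Dixon limit for that group size. Of 57 comparisons 12 were marked, and chance alone marks about 1 in 20. In uninjured mice they were the neuron share of cells in cKO mouse 1 (29.8%, next 9.45%), cholinergic genes in WT mouse 2 (376 CPM, next 98.0), neuropeptide genes in WT mouse 1 (1714, next 822) and mitochondrially encoded genes in WT mouse 1 (44860, next 8246). In injured WT mice they were the median mitochondrial percentage of neurons in 7 d mouse 1 (4.48%, next 1.67%), red blood cell genes in 7 d mouse 1 (402, next 104.9), endothelial and mural genes in 1 d mouse 1 (132, next 937) and Ryk in 1 d mouse 1 (0, next 37.2). The CPM here are not scaled to library composition, unlike the values by mouse given for Ryk above. In injured cKO mice they were the inhibitory share in 7 d mouse 1 (50%, next 74.4%), red blood cell genes in 7 d mouse 2 (7272, next 363), microglial and immune genes in 14 d mouse 1 (1431, next 542) and cholinergic genes in 7 d mouse 1 (169, next 68.8). Some rest on few UMIs: Ryk on 0 of 7570 and the endothelial and mural genes on 1 in WT 1 d mouse 1, and the inhibitory share on 4 and the cholinergic genes on 6 in cKO 7 d mouse 1. The cause of each was not tested, and the marks are not a test.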

How the results depend on the processing

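Alternatives moved the number of called genes and the sign of some shares, and the cause was not tested. At 1 d the called genes numbered 1 by DESeq2, 2 with no scaling, 16 with no filter, 5 with the animal number series and 1 under cell-name conditions. At 7 d they numbered 0 by DESeq2, with RLE factors, with at least 30 neurons per mouse, under cell-name conditions and without sub-clusters 4, 5 and 7. They numbered 15 with no scaling, 35 with no filter, 2 with at least 10 UMIs in at least 4 mice, 4 without the neurons once in another cluster, 7 with the replicate block (the authors' batch), 308 with the animal number series and 2 without the libraries that go against their cell names. At 14 d they numbered 0 by DESeq2, 6 with RLE factors, 129 with no scaling, 480 with no filter, 158 with at least 10 UMIs in 4 mice, 7 with at least 30 neurons, 20 with neurons of at least 1000 UMIs, 830 with the animal number series, 20 under cell-name conditions, 49 without the libraries that go against their names, 6 without sub-clusters 4, 5 and 7 and 23 without the 4 libraries that share barcodes. Between uninjured genotypes they numbered 7 with no filter, 15 with the animal number series, 6 under cell-name conditions and 7 without the libraries that go against their names. Between injured genotypes they numbered 10 with no filter, 1 with neurons of at least 1000 UMIs, 1 under cell-name conditions, 22 without the libraries that go against their names and 1 without the 4. For the interaction they numbered 3 with no filter, 5 with the animal number series and 8 without the libraries that go against their names. With 1 mouse left out the called genes ranged from 0 to 0 at 1 d, 0 to 2 at 7 d, 2 to 118 at 14 d, 0 to 2 between uninjured genotypes, and 0 to 0 after injury and for the interaction. The injured minus uninjured neuron share was 0.169 without the neurons once in another cluster, 0.557 with neurons of at least 1000 UMIs, 0.729 with the block and 5.62 without the 4, and ranged from -5.10 to 5.08 with 1 mouse left out. The genotype difference in that share ranged from 1.80 to 7.39. The inhibitory share differed with injury by -0.447 under cell-name conditions and -0.018 without the libraries that go against their names, ranging from -1.21 to 5.04, and with genotype by -0.797 with the block, ranging from -7.94 to 8.09. Log2 values of named genes changed sign for Cwc22 at 7 d (-2.44 without the libraries that go against their names, -2.50 without WT 7 d mouse 2; it was 4.07 and no longer called without WT uninjured mouse 1), Gm10721 at 7 d (-0.55 under cell-name conditions), Calca (0.78, the same) and Lhfpl3 (-0.039 with neurons of at least 1000 UMIs, -0.055 without the 4). Of 1412 values of named genes, 1066 stayed the same, 290 were weaker, 50 stronger and 6 reversed. Under that block Dctn3 at 14 d was not called (log2 -1.64). No WT mouse at 1 d remained with at least 30 neurons per mouse, with neurons of at least 1000 UMIs or without the 4, so 1 d was not fitted there.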

Other observations

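Mitochondrially encoded genes summed to 44860 CPM in neurons of WT uninjured mouse 1, 36200 in WT 1 d mouse 1, 38710 in cKO 1 d mouse 1, 45910 in WT 7 d mouse 1 and 51050 in cKO 7 d mouse 1. The other 10 mice had 5096 to 11790. Among the 5 high mice, 4 are those whose libraries share barcodes and hold a median of 317 to 404 UMIs per neuron, and WT uninjured mouse 1 has 1254. Per cell the median mitochondrial share in neurons of WT 1 d mouse 1 was 1.504%, within the 1.03% to 2.25% of those 10 mice, and in the other 4 of the 5 it was 3.44% to 6.96%.

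Monoamine genes were rare in neurons. Ddc had 189 UMIs and Tph2, which makes serotonin in neurons, had 44, while Dbh had 3.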
